A study of Mus musculus with 10 samples.

Results

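Cells show fragments of their proteins to T cells on molecules of the major histocompatibility complex (MHC). Here, 10 genes of that pathway were followed in skeletal muscle of desmin knock-out mice, chosen by name from the 54232 genes of the expression table. They were the class I chains H2-K1, H2-D1 and B2m, the peptide transporter and loading genes Tap1, Tap2 and Tapbp, the class I transactivator Nlrc5, and the class II genes Cd74, H2-Aa and H2-Ab1. All 10 genes had a row in the table and all 10 passed the expression limit, a mean of at least log2(10), so that each was tested.

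By the study's methods, the RNA came from gastrocnemius muscle, a calf muscle, at 3 months of age. The sample labels give striated muscle of 5 homozygous desmin knock-out mice (Des -/-) and 5 wild-type mice (Des wt/wt). By the name of the strain, both carried a B6J background with 129Sv as the donor, the targeted allele was Destm1Cba and the colony Cscl. No treatment is given for any mouse. Elsewhere the study names gastrocnemius and plantaris muscle together as the source of the RNA, so that plantaris, another calf muscle, may be part of the samples. Desmin is the intermediate filament protein of muscle cells, and the knock-out allele is carried by every cell of the animal rather than by muscle fibers alone. The study's methods describe RNA pooled from muscles of each genotype, whereas the table has 1 column per mouse, and each column was taken here as 1 mouse. Values are rlog values, that is, regularised log2 read counts in which low counts are drawn towards the gene's mean, so a difference understates the change of a low gene. Sequencing depth per mouse is unknown, because the table holds no read counts.

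In class I presentation, peptides made by the proteasome in the cytosol are carried into the endoplasmic reticulum by the transporter formed by Tap1 and Tap2, and tapasin (Tapbp) helps to load them onto a heavy chain such as H2-K1 or H2-D1 that is paired with beta-2 microglobulin (B2m). Nearly all nucleated cells carry class I molecules, and adult muscle fibers are known for carrying little. Class II molecules such as I-A, made of H2-Aa and H2-Ab1, take up peptides in endosomes after the invariant chain Cd74 has been cut away, and they belong mainly to macrophages, dendritic cells and B cells. Interferon-gamma raises both sets of genes, with Nlrc5 acting at class I promoters and Ciita at class II promoters.

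Promoters of class I and class II genes share a module of short elements, among them an X2 box and a Y box, to which the factors that work with Nlrc5 and Ciita bind. RefSeq promoters on GRCm38.p6 were found for 6 of the 10 genes, H2-K1, H2-D1, B2m, Tap1, Tapbp and H2-Aa. The 250 bases before the start site were searched on both strands for the X2 core TGACG followed on the same strand by the Y core ATTGG after 10 to 35 bases. This pair was in 4 of the 6 promoters and in 0.724% of all 32851 promoters. The spacer was 20 bases in H2-K1, H2-D1 and B2m and 21 bases in H2-Aa, and Tap1 and Tapbp held no such pair. The stretches of 3 genes are printed 5′ to 3′ in the direction of the gene, because they show that class I and class II genes hold the same pair of words, and capitals mark the words searched. H2-K1 is on the minus strand at chr17:34000348-34000445, B2m on the plus strand at chr2:122147601-122147650 and H2-Aa on the minus strand at chr17:34287855-34287905.
H2-K1: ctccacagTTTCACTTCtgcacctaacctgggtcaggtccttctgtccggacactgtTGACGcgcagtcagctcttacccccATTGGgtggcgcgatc
B2m: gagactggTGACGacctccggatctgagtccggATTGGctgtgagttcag
H2-Aa: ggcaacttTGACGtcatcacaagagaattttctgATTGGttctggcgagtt

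The first capitals in H2-K1 match, on the other strand, GAANNGAAA, a form of the interferon-stimulated response element. That word was in 6.31% of all promoters and, of the 6, in H2-K1 and H2-D1. Alone, TGACG was in 17.8% and ATTGG in 33.8% of all promoters. A match of letters is a description and does not show that a factor was bound.

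As a check of the genotypes, Des was between 11.76 and 11.89 in the knock-out mice and between 16.10 and 17.74 in the wild-type mice. Wild-type mouse 3 stood apart from the other 9 mice. Its values, taken back to the linear scale, summed to 1.48 times the median mouse, against 0.949 to 1.06 times in the others, and its top 20 genes held 46.7% of that sum, against 35.8% to 39.5%. Where leaving this mouse out moved a value of the 10 antigen presentation genes by more than 1.5 times or changed its call, the value without it is also given.

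None of the 10 antigen presentation genes passed the test between genotypes. Their differences, knock-out minus wild-type, lay between -0.13 for Cd74 and 0.26 for B2m, and the 95% confidence intervals of all 10 lay between -0.50 and 0.63, the lower bound being that of Cd74 and the upper that of Nlrc5. The mean was higher in knock-out mice for 7 genes and lower for 3 (for 6 and 4 after median centring, where Tap1 turned to -0.02), with a median difference of 0.078, while the median over all 14289 tested genes was -0.003 and 49.5% of them had a higher mean in knock-out mice. At an adjusted p under 0.05 (limma with Benjamini-Hochberg adjustment over all tested genes) 0 of 10 genes were called, and the share called over all tested genes was 13.7%, with 7.7% higher and 5.99% lower in knock-out mice. At an unadjusted p under 0.05 it was 1 of 10, B2m, against 27.6% of all tested genes, and the exact permutation test also gave a p under 0.05 for B2m alone. The values of the genotypes overlapped for each of the 10 genes, while 14.4% of all tested genes had groups that did not overlap, 7.45% with knock-out mice above and 6.97% with knock-out mice below. In whole muscle, fewer cells of a type and less RNA per cell cannot be told apart.

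**Figure D1:**
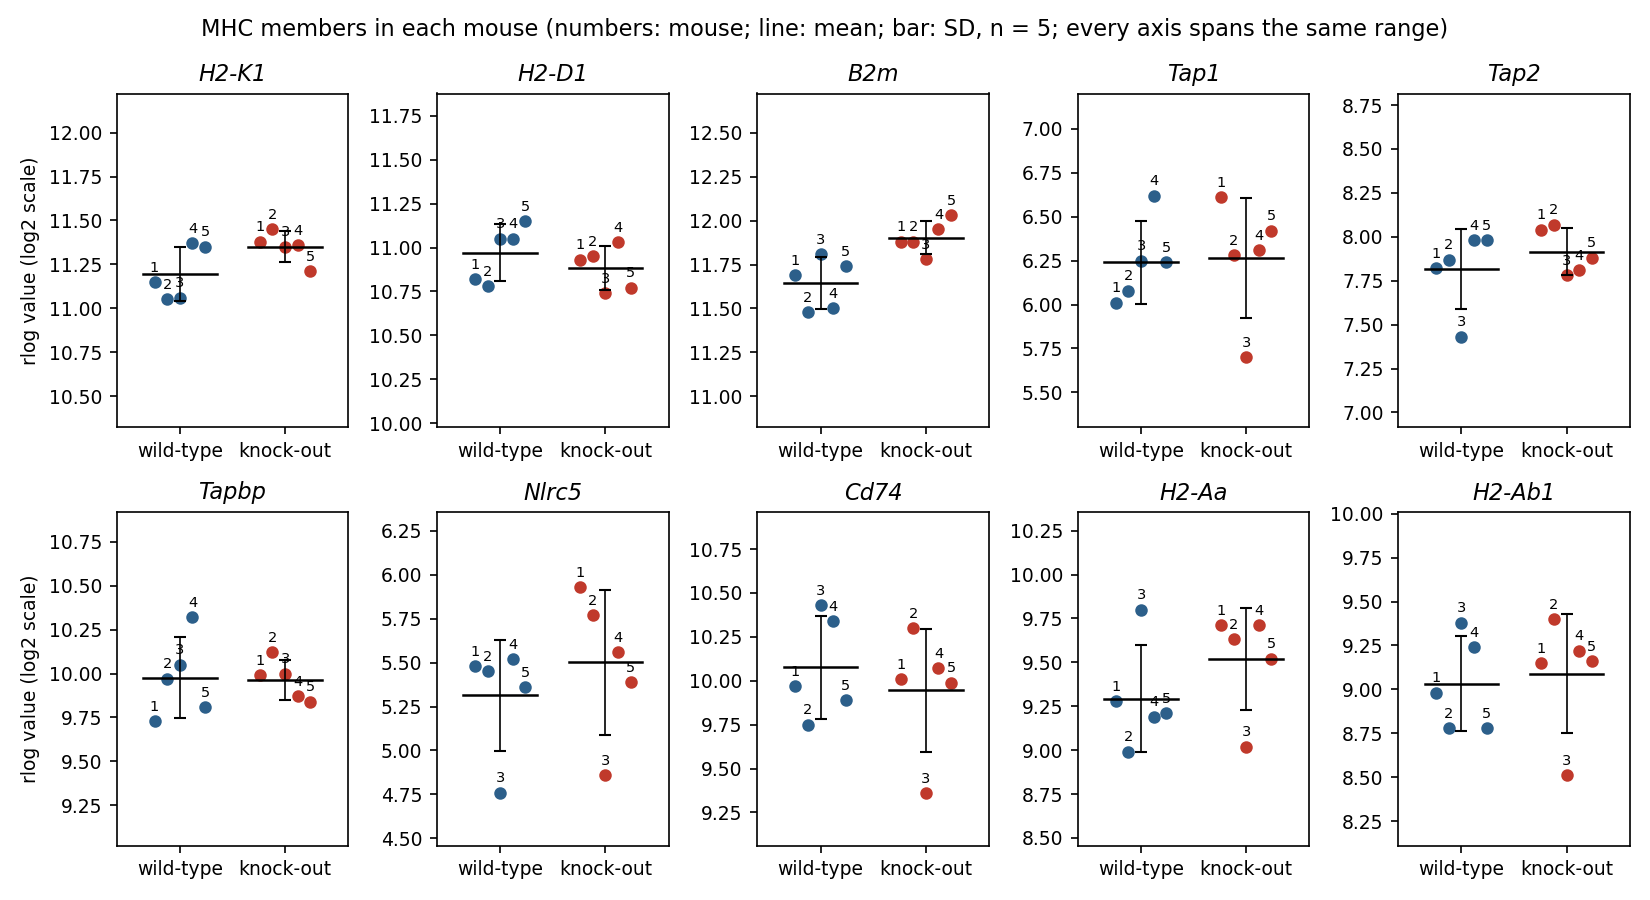
Values (rlog, log2 scale) of the 10 antigen presentation genes in 5 desmin knock-out and 5 wild-type mice, each point 1 mouse. The genotypes overlap for every gene, and B2m comes nearest to separating, with 4 of 5 knock-out mice above all wild-type mice.

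The class I heavy chain gene H2-K1 (ENSMUSG00000061232, GRCm38 chr17:33996017-34000347, minus strand) had values of 11.38, 11.45, 11.35, 11.36 and 11.21 in knock-out mice 1 to 5 and of 11.15, 11.05, 11.06, 11.37 and 11.35 in wild-type mice 1 to 5. Wild-type mice 4 and 5 lay among the knock-out mice, and 2 knock-out mice were above all wild-type mice. The difference was 0.15 ± 0.09 (SE), with a limma adjusted p of 0.307.

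The other heavy chain gene, H2-D1 (ENSMUSG00000073411, chr17:35262730-35267499, plus strand), was at 10.93, 10.95, 10.74, 11.03 and 10.77 in the knock-out and at 10.82, 10.78, 11.05, 11.05 and 11.15 in the wild-type mice. The highest mouse was wild-type and the lowest knock-out, with the groups mixed between them. Its difference was -0.09 ± 0.10 (SE), with a limma adjusted p of 0.606. H2-K1 and H2-D1 share stretches with other genes: 9.63% of the 50-base words of H2-K1 transcripts and 12.8% of those of H2-D1 also occur in transcripts of other genes. Words shared between H2-K1 and H2-D1 were 4.08% of those of H2-K1 and 5.44% of those of H2-D1. The gene sharing most words was H2-Q10 for H2-K1 and H2-Q1 for H2-D1, both of the class I family, so reads from the shared stretches can match such copies. H2-Q1 was listed at 0 in every mouse, and H2-Q10 was low, with means of 3.85 in knock-out and 3.95 in wild-type mice. How such reads were counted is not given in the sources used here.

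B2m (ENSMUSG00000060802, chr2:122147686-122153083, plus strand), the invariant light chain of all class I molecules, was at 11.88, 11.88, 11.78, 11.95 and 12.03 in the knock-out mice. In the wild-type mice it was at 11.69, 11.48, 11.81, 11.50 and 11.74. Only wild-type mouse 3, at 11.81, reached into the range of the knock-out mice, where it exceeded mouse 3 of that genotype. The difference was 0.26 ± 0.09 (SE; 95% confidence interval 0.06 to 0.46), with an exact two-sided permutation p of 0.0159 and a limma p of 0.0142, which became 0.082 after adjustment. Without wild-type mouse 3 the difference was 0.30 with a limma adjusted p of 0.016, in a fit that called 17.5% of all tested genes. B2m shared no 50-base word with another gene, but Patl2 overlaps it on the opposite strand, and the strand setting of the read counting is not given in the sources used here.

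Of the transporter genes, Tap1 (ENSMUSG00000037321, chr17:34187553-34197225, plus strand) ranged from 5.70 to 6.61 in knock-out and from 6.01 to 6.62 in wild-type mice, around means of 6.26 ± 0.34 and 6.24 ± 0.24 (SD, n = 5 each). The difference of 0.03 ± 0.17 (SE) was far smaller than the spread within either genotype, and without knock-out mouse 3 it was 0.17. Tap2 (ENSMUSG00000024339, chr17:34203527-34216321, plus strand) ranged from 7.78 to 8.07 and from 7.43 to 7.98, with a difference of 0.10 ± 0.12 (SE) that became 0.003 without wild-type mouse 3. Tap2 values of knock-out mice 1 and 2 were above all wild-type values, and those of the other knock-out mice were not. Psmb9 overlaps Tap1 on the opposite strand, as do a pair of predicted genes at Tap2.

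Tapbp (ENSMUSG00000024308, chr17:33915899-33929292, plus strand), which bridges the transporter and the empty class I molecule, was between 9.84 and 10.12 in knock-out mice and between 9.73 and 10.32 in wild-type mice. Its difference was -0.01 ± 0.11 (SE) and 0.07 without wild-type mouse 4 and 0.004 without wild-type mouse 3, and Zbtb22 overlaps it on the same strand. Nlrc5 (ENSMUSG00000074151, chr8:94434356-94527272, plus strand) was at 5.93, 5.77, 4.86, 5.56 and 5.39 in the knock-out and at 5.48, 5.45, 4.76, 5.52 and 5.36 in the wild-type mice. Mouse 3 was the lowest of each genotype, and the labels do not say whether a number shared between genotypes marks a pair. The Nlrc5 difference was 0.19 ± 0.20 (SE), with a limma adjusted p of 0.575. It was 0.05 without wild-type mouse 3 and 0.35 without knock-out mouse 3, and passed in neither case (limma adjusted p = 0.886 and 0.242).

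Among the class II genes, Cd74 (ENSMUSG00000024610, chr18:60803848-60812652, plus strand) was at 10.01, 10.30, 9.36, 10.07 and 9.99 in the knock-out and at 9.97, 9.75, 10.43, 10.34 and 9.89 in the wild-type mice. Knock-out mouse 3 was the lowest of all 10 mice and wild-type mouse 3 the highest. The Cd74 difference was -0.13 ± 0.17 (SE), and it was 0.02 without knock-out mouse 3 and -0.04 without wild-type mouse 3.

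H2-Aa (ENSMUSG00000036594, chr17:34282744-34287823, minus strand), the alpha chain of I-A, was at 9.71, 9.63, 9.02, 9.71 and 9.52 in the knock-out mice. In the wild-type mice it was at 9.28, 8.99, 9.80, 9.19 and 9.21. In 4 of the 5 knock-out mice H2-Aa was above 4 of the 5 wild-type mice, and mouse 3 of each genotype ran the other way. The difference was 0.23 ± 0.16 (SE), with a limma adjusted p of 0.394. Without wild-type mouse 3 it was 0.35 and did not pass (limma adjusted p = 0.0844), and without knock-out mouse 3 it was likewise 0.35 (limma adjusted p = 0.162). Where the fit weighted mice by how closely they followed it, wild-type mouse 3 had a weight of 0.1 and the H2-Aa difference was 0.43 with a limma adjusted p of 0.0077. That weighted fit called 29.5% of all tested genes.

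H2-Ab1 (ENSMUSG00000073421, chr17:34257689-34269419, plus strand), the beta chain of I-A, was at 9.15, 9.40, 8.51, 9.22 and 9.16 in the knock-out and at 8.98, 8.78, 9.38, 9.24 and 8.78 in the wild-type mice. Again knock-out mouse 3 was the lowest of all. The H2-Ab1 difference was 0.06 ± 0.17 (SE), with a limma adjusted p of 0.856. It was 0.14 without wild-type mouse 3 and 0.20 without knock-out mouse 3 (limma adjusted p = 0.612 and 0.409).

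**Figure D2:**
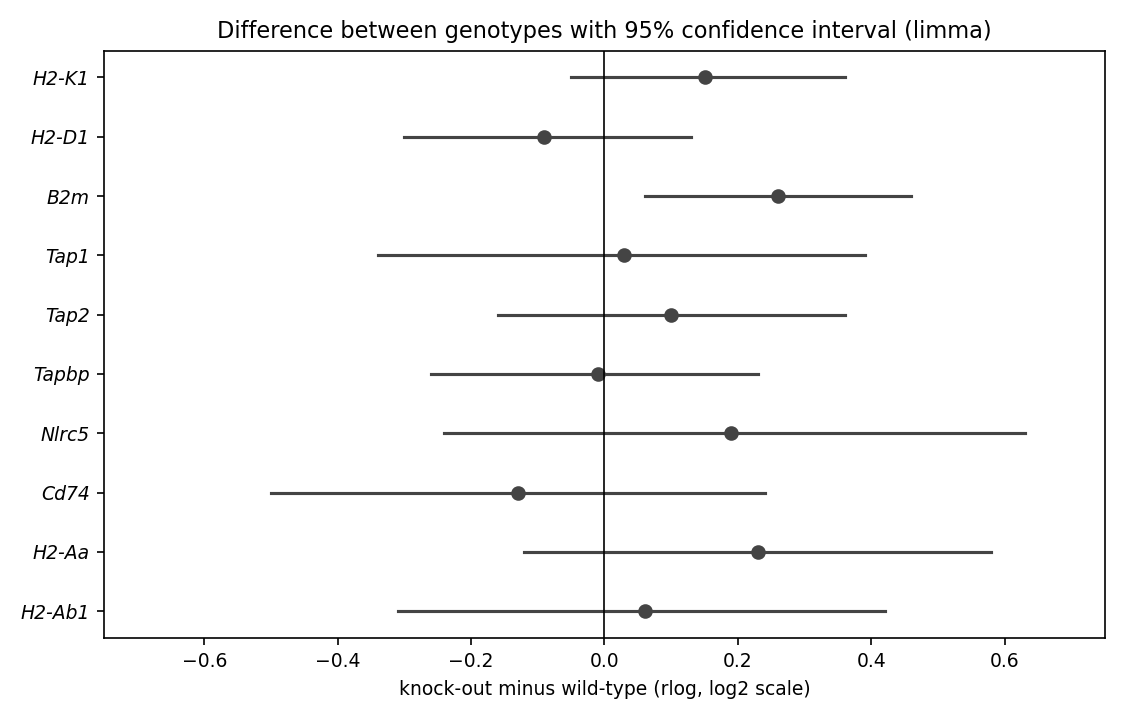
Difference between genotypes (knock-out minus wild-type, rlog on the log2 scale) for the 10 antigen presentation genes, with points for the limma estimate and bars for the 95% confidence interval. The interval of B2m, 0.06 to 0.46, lies above 0 before adjustment, and the other 9 intervals span 0.

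The 10 genes differed in how much they varied between mice of 1 genotype. The SD within genotype was 0.12 for B2m, 0.13 for H2-K1 and 0.15 for H2-D1, and it was 0.30 for H2-Aa, 0.31 for H2-Ab1, 0.32 for Cd74 and 0.37 for Nlrc5. Of all tested genes, 13% had a smaller SD than B2m and 85.3% a smaller SD than Cd74, around a median of 0.21.

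Across the class II genes the same mice lay at the ends of the range. The list of class II chains held 10 genes, of which 6 passed the expression limit, Cd74, H2-Aa, H2-Ab1, H2-Eb1, H2-DMa and H2-DMb1. Knock-out mouse 3 was the lowest knock-out mouse in 6 of these 6 genes, at 0.38 to 0.65 below the mean of its genotype, and the lowest of all 10 mice in 5. Over all tested genes it was the lowest knock-out mouse in 22.1%. Wild-type mouse 3 was the highest wild-type mouse in 6 of 6 class II genes and in 34.2% of all tested genes. Knock-out mouse 3 was also the lowest of its genotype in 8 of all 10 members and in 6 of 14 class I chains. The same held for 10 of 13 macrophage markers. Wild-type mouse 3 was the highest of its genotype in 5 and the lowest in 5 of those 13 markers. The part of macrophage content in the class II levels was not tested.

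**Figure D3:**
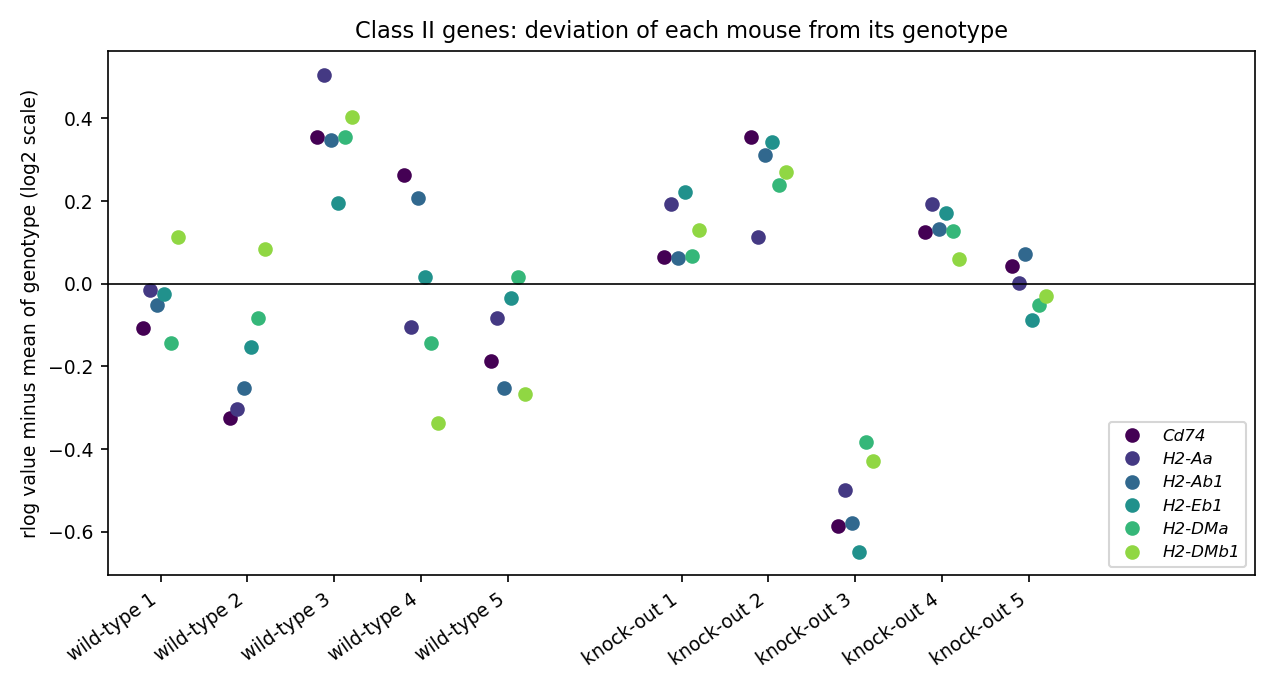
Deviation of each mouse from the mean of its genotype (rlog, log2 scale) for the 6 tested class II genes. The points of knock-out mouse 3 lie between -0.65 and -0.38, below those of every other knock-out mouse, and those of wild-type mouse 3 are the highest of the wild-type mice.

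To compare the genes with each other, log2 of the merged exon length in kb was subtracted from each rlog value. By this level per length, B2m was highest in wild-type mice at 11.86 ± 0.15 (SD, n = 5). It was followed by H2-K1 at 9.64 ± 0.16, H2-D1 at 9.60 ± 0.16 and Cd74 at 9.33 ± 0.29. Tapbp at 8.12 ± 0.23, H2-Ab1 at 7.67 ± 0.27 and H2-Aa at 7.37 ± 0.30 came next. The lowest levels were those of Tap2 at 5.90 ± 0.23, Tap1 at 3.79 ± 0.24 and Nlrc5 at 2.23 ± 0.32. The order was the same in knock-out mice. By the merged exons H2-K1 and H2-D1 differed by less than their spread in wild-type mice, by 0.04 ± 0.13 (SD of the gap, n = 5). In knock-out mice the gap was 0.28 ± 0.11, a change that was not tested. In wild-type mice H2-D1 lay above Cd74 by 0.28 ± 0.26. Between H2-Ab1 and H2-Aa the gap was 0.30 ± 0.20 in wild-type and 0.13 ± 0.13 in knock-out mice, the latter no larger than its spread. With the longest transcript in place of the merged exons, Tapbp and H2-Ab1 changed places. By that length H2-K1 was at 10.29 ± 0.16 and H2-D1 at 9.90 ± 0.16 in wild-type mice. H2-Ab1 was at 8.76 ± 0.27 and H2-Aa at 7.60 ± 0.30 in wild-type mice, and at 8.81 ± 0.34 and 7.83 ± 0.29 in knock-out mice. The size of both gaps thus depended on the length chosen.

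By the root mean square difference of profiles over the 10 mice, each centred on its mean, the gene most like Cd74 was H2-Ab1 at 0.10, followed by Gpsm3 at 0.10, Pth1r at 0.12, Evl at 0.12 and Loxl1 at 0.14, while the median gene was at 0.36. H2-Aa was at rank 682 from Cd74, at 0.24. The genes most like B2m were Mgat2 at 0.06, Cetn2 at 0.07, Yrdc at 0.08, Ppic at 0.08 and Smim8 at 0.08, with the median gene at 0.28. The nearest to B2m of the other 9 antigen presentation genes was H2-K1, at rank 1472 and 0.18.

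Around these 10 genes, lists of the wider pathway held 82 genes with them, of which 81 were in the table and 68 were tested. In the limma fit 5 of the 68 rose and 1 fell, 8.82% against 13.7% of all tested genes, with a median difference of 0.051. Without wild-type mouse 3, 8 rose and 2 fell, 14.7% against 17.5% of all tested genes. In a fit with the mean of the Y-linked genes as a covariate 8 rose and 3 fell, 16.2% against 14.6%. That mean ran from 9.52 to 10.6 over the mice and was lowest in wild-type mouse 3, so the covariate is not independent of that mouse. In the weighted fit 15 rose and 5 fell, 29.4% against 29.5%.

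Of the 14 tested class I chains only Cd1d1 rose, from 5.51 ± 0.24 to 6.13 ± 0.28 (SD, n = 5 each), and the list's median difference was 0.145. The share called was 7.14%, against 13.7% of all tested genes. Cd1d1 presents lipids rather than peptides. It was at 5.81 to 6.59 in knock-out and at 5.11 to 5.72 in wild-type mice with no overlap, a difference of 0.63 ± 0.16 (SE; limma adjusted p = 0.0173). No other non-classical chain passed. Those with the smallest p had differences of 0.33 for H2-M3, 0.31 for H2-Q7 and 0.31 for H2-Q6 (limma adjusted p = 0.0981, 0.298 and 0.344). Differences over the list ran from -0.31 to 0.63, with 10 genes higher and 4 lower in mean in knock-out mice.

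In the peptide loading list 1 of 8 genes rose, Canx, with a median difference of 0.017 over the list. Its share called, 12.5%, was near the 13.7% of all tested genes. Canx encodes calnexin, a chaperone that folds glycoproteins at large and new class I heavy chains among them. It was at 12.27, 12.31, 12.34, 12.19 and 12.31 in the knock-out and at 11.88, 11.93, 10.92, 11.42 and 11.73 in the wild-type mice, without overlap. Wild-type mouse 3 was the lowest, and without it the Canx difference was 0.54. With all mice it was 0.71 ± 0.16 (SE; limma adjusted p = 0.0102). The chaperone partners Pdia3 and Calr had differences of 0.28 and 0.01 (limma adjusted p = 0.0512 and 0.978), and the tapasin relative Tapbpl one of -0.25 (limma adjusted p = 0.129).

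Of 6 immunoproteasome genes Pomp rose, by 0.33 ± 0.09 (SE; limma adjusted p = 0.0333), with a median difference of -0.060 over the list. This was 16.7% of the list, near the 13.7% of all tested genes called. Pomp assembles every proteasome, not the immunoproteasome alone, and its call was lost in 10 of 18 alternative settings. The inducible subunit genes Psmb8 and Psmb10 had differences of -0.16 and 0.24 and the activator gene Psme1 one of -0.19, none of which passed (limma adjusted p = 0.553, 0.249 and 0.451). Without wild-type mouse 3, Psmb8 was at -0.03 and Psme1 at -0.04.

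None of the 6 tested class II chains passed the limma test at an adjusted or an unadjusted p under 0.05, against 13.7% and 27.6% of all tested genes. Their differences ran from -0.21 for H2-DMa, part of the peptide exchange factor, to 0.23 for H2-Aa. Among the 10 class II processing genes 2 proteases of the endosome rose, with a median difference of 0.014 over the list. That was 20% called, against 13.7% of all tested genes. Lgmn, an asparagine-specific protease, was at 10.82 to 11.09 in knock-out and at 10.32 to 10.64 in wild-type mice, a difference of 0.46 ± 0.10 (SE; limma adjusted p = 0.00573). Ctsl, the gene of cathepsin L, was at 12.04 to 12.22 against 11.57 to 12.03, a difference of 0.33 ± 0.10 (SE; limma adjusted p = 0.0375) whose call was lost in 12 of 18 alternative settings. Lgmn and Ctsl act in the lysosomes of many cell types. Ctss and Ctsd had differences of 0.42 and -0.38 that did not pass (limma adjusted p = 0.121 and 0.105).

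Of the 11 tested genes of MHC transcription none passed at an adjusted p under 0.05 (limma) and 2 had an unadjusted p under 0.05, with a median difference of 0.033. Of all tested genes, 13.7% passed and 27.6% had an unadjusted p under 0.05. Rfx5, part of the factor that binds the X box, had a difference of 0.34 (limma adjusted p = 0.0559). Irf2 and Nfyc each had one of -0.13. Ciita lay under the expression limit, at 3.21 ± 0.30 in knock-out and 3.20 ± 0.27 in wild-type mice (SD, n = 5 each).

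In the list of interferon-gamma signalling 1 of 10 tested genes fell and none rose, with a median difference of 0.054. The share called was 10%, against 13.7% of all tested genes. Jak2, a kinase of the interferon-gamma receptor and of many cytokine receptors, was at 10.82 to 11.07 in knock-out and at 11.14 to 11.63 in wild-type mice without overlap. Jak2 fell by 0.47 ± 0.10 (SE; limma adjusted p = 0.00844). Jak1 was also without overlap, at 12.53 to 12.74 against 12.78 to 13.05, but did not pass (limma adjusted p = 0.0938). The interferon-induced chemokine genes Cxcl9 and Cxcl10 had differences of 0.53 and 0.69 that did not pass (limma adjusted p = 0.0621 and 0.0707). Ifng itself was listed at 0 in all 10 mice. Of the co-stimulation genes 3 were tested, with differences of 0.18 for Cd86, 0.10 for Cd274 and -0.01 for Icosl. At an adjusted or an unadjusted p under 0.05 (limma) 0 of 3 passed, against 13.7% and 27.6% of all tested genes.

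**Figure D4:**
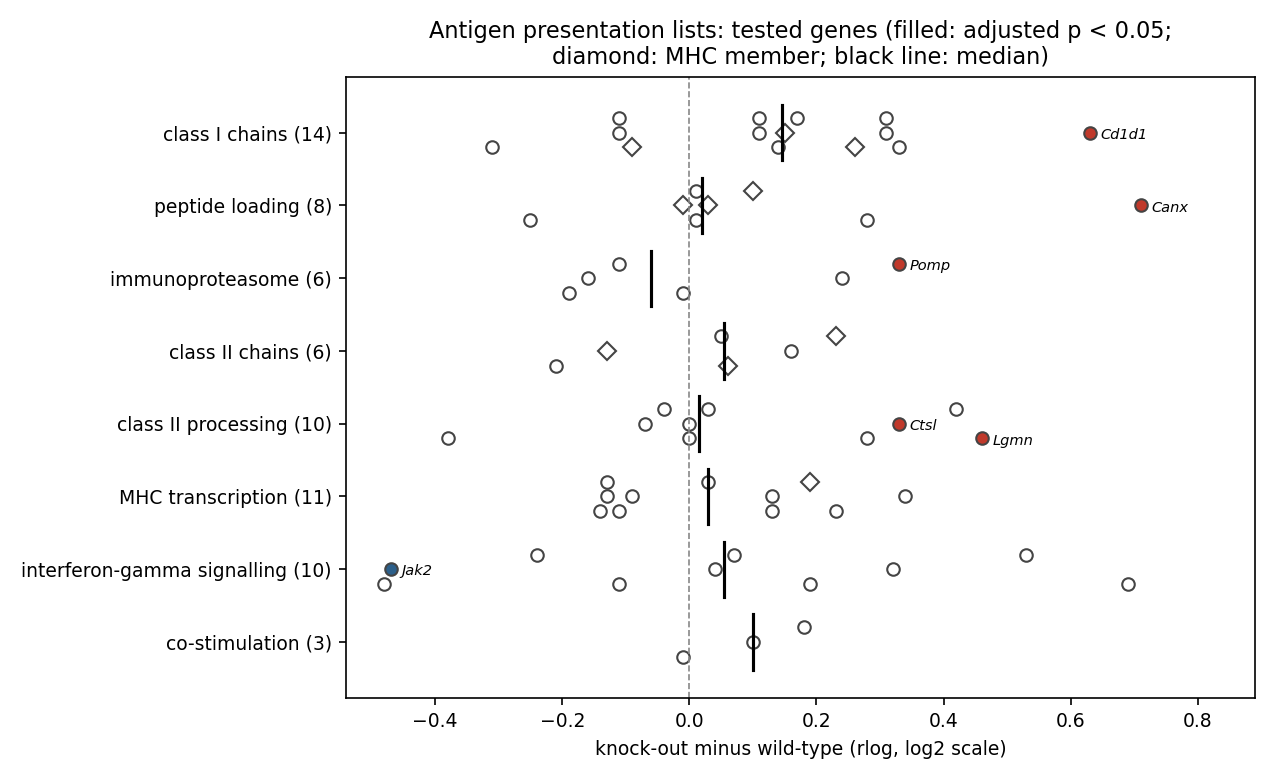
Difference between genotypes (knock-out minus wild-type, rlog on the log2 scale) for the 68 tested genes by list, with filled points for a limma adjusted p under 0.05 and black lines for list medians. Cd1d1, Canx, Pomp, Lgmn and Ctsl lie above 0 and Jak2 below, and the list medians lie between -0.060 and 0.145.

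Markers of the cells that carry these molecules were read beside them. As a scale for their counts, 7.7% of all tested genes rose and 5.99% fell, and 27.6% had an unadjusted p under 0.05 (limma). Macrophage markers were all measured, 13 of 13 above the expression limit, with 0 called by limma at an adjusted p under 0.05, 1 at an unadjusted p under 0.05 and a median difference of 0.085. Their summed level on the log2 scale was 11.45 to 11.93 in knock-out and 11.46 to 11.82 in wild-type mice. Of 10 dendritic cell markers 4 were tested and Itgax, the gene of CD11c, rose by 0.38 ± 0.11 (SE; limma adjusted p = 0.0302), a call that was lost in 10 of 17 alternative settings. The summed level of that list was 8.54 to 8.76 against 8.18 to 8.78. Lymphocyte markers were low, with 1 of 8 B cell markers and 0 of 10 T and NK cell markers above the expression limit. The part of these cells in the MHC levels was not tested.

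Class I genes are also used by endothelial cells, and 5 of 10 endothelial markers fell, among them Vwf by 0.62, Cdh5 by 0.52 and Pecam1 by 0.49 (limma adjusted p = 0.00619, 0.00797 and 0.013), while none rose. Their summed level was 12.29 to 12.64 in knock-out and 12.62 to 12.95 in wild-type mice. Over all tested genes 5.99% fell and 7.7% rose. Of the 12 muscle fiber markers, all of them tested, Myh2 rose by 0.77 and Actn3 and Myh4 fell by 0.97 and 0.71 (limma adjusted p = 0.0195, 0.0196 and 0.036). These calls were lost in 4 of 18 alternative settings for Myh2, in 3 of 18 for Actn3 and in 12 of 18 for Myh4. The summed fiber level was 22.34 to 22.52 against 22.54 to 23.44. Of 7 neutrophil markers 2 were tested, and S100a9 fell by 1.18 (limma adjusted p = 2.54e-04). S100a9 was low, at 2.66 to 3.02 in knock-out mice, all under log2(10), and at 3.45 to 4.33 in wild-type mice. The other, S100a8, had a difference of 0.02 (limma adjusted p = 0.959). The part of these shifts in the values of B2m, H2-K1 and H2-D1 was not tested.

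**Figure D5:**
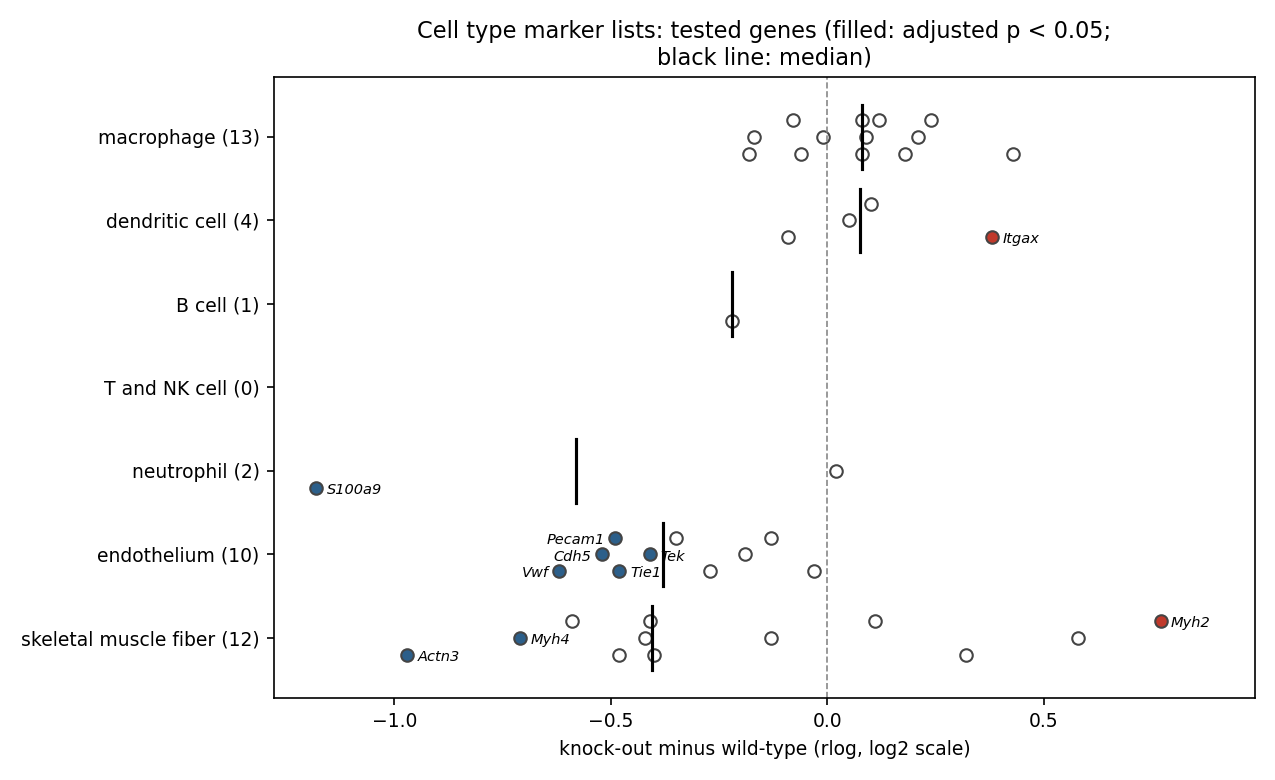
Difference between genotypes (knock-out minus wild-type, rlog on the log2 scale) for the tested genes of 7 cell type marker lists, with filled points for a limma adjusted p under 0.05 and black lines for list medians. The macrophage points lie on both sides of 0 and none is filled, and 5 of the 10 endothelial points are filled, all below 0.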

How the data were processed

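RNA-seq of gastrocnemius muscle was analysed in 10 mice, 5 per genotype, each called by the number in its label. The authors deposited log2 values per gene and mouse, made as rlog values with DESeq2. The submitters' processing notes name cutadapt 2.5, STAR 2.5.4a, featureCounts, Subread 1.6.1, DESeq2 and the build GRCm38. The settings of counting and rlog are not given in the sources used here. Replicate mice are separate columns, and p-values measure the spread between them.

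An expression limit of log2(10) on the mean rlog value left 14289 of 54232 genes, which were fitted with limma 3.58.1 in R 4.3.3 (two-sided, prior variance following the mean). P-values were adjusted by Benjamini-Hochberg over these 14289 genes. A call is an adjusted p under 0.05. Members were also compared by an exact two-sided permutation test, whose smallest possible p with 5 against 5 mice is 0.00794. The fit was tested on simulated data in which each planted change was larger than any difference among the 10 antigen presentation genes. It recovered 89.5% of 200 planted genes, and 3.76% of its calls were not planted. The simulated noise was equal in both genotypes, with no outlying mouse. This test therefore does not show how often differences as small as theirs would be found. Symbols, positions and lengths came from GENCODE M21 (GRCm38) and promoters from RefSeq (GRCm38.p6). Linear sums were taken over 2 to the power of each rlog value.

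Beside the 10 antigen presentation genes and Des, the genes named were the 4 of each pathway list and the 3 of each marker list with the smallest adjusted p (1 of them is not reported here), and the 5 nearest in profile to Cd74 and to B2m. The members and lists were chosen with earlier results of these data known. The fit was repeated with other expression limits, a stricter adjusted p, quantile normalization, median centring, sample weights, 1 prior variance for all genes, the Y-linked mean as a covariate, a block for mouse number, and without each mouse in turn.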

Additional observations from a re-analysis of the deposited data

Results flagged for a closer look

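In 7 of 112 groups of 5 mice, 56 named genes in both genotypes, 1 mouse lay far from the other 4 by Dixon's test at its 95% critical value, where chance gives about 5.6. Of these 7 flags, 3 were of wild-type mouse 3 and the rest were of knock-out mouse 3. The genes were partly chosen by p and were measured in the same mice, so the groups are not independent. Setting 7 beside 5.6 is therefore no test of chance. Of the antigen presentation genes, Nlrc5 was at 4.76 in wild-type mouse 3, with the other wild-type mice at 5.36 to 5.52. Knock-out mouse 3 was low for both chains of I-A, with H2-Aa at 9.02 against 9.52 to 9.71 and H2-Ab1 at 8.51 against 9.15 to 9.40. In the same mouse the chaperone gene Pdia3 was at 10.87 against 11.12 to 11.19 and the chemokine gene Cxcl9 at 4.36 against 5.04 to 5.26. In wild-type mouse 3, Des was at 17.74 against 16.10 to 16.55 and Actn3 at 19.34 against 17.92 to 18.24 in the other wild-type mice.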

How the results depend on the processing

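Without read counts, depth and counting error are unknown, and rlog narrows differences of low genes such as Ciita. The number of antigen presentation genes called of 10 was 0 with all mice and became 1 with quantile normalization (B2m), 2 with sample weights (B2m and H2-Aa), and 0 to 1 when single mice were left out. Of all tested genes, quantile normalization called 15% and sample weights 29.5%. Among the fits that left out a mouse, the value of 1 was without wild-type mouse 3, where 17.5% of all tested genes were called. The other alternatives called 0 of the members tested. B2m lay between 0.22 and 0.35 over its alternatives, with limma adjusted p from 0.00103 to 0.196, and passed in 3 of 18. Calls over the wider lists, 6 with all mice, were 2 at an adjusted p under 0.01, 20 with sample weights, 11 with the Y-linked covariate and 4 to 10 when single mice were left out, with 10 without wild-type mouse 3 and 4 without knock-out mouse 2, 4 or 5 or wild-type mouse 2. Over all genes 1956 calls became 994 at an adjusted p under 0.01 and 4220 with sample weights. Mouse number as a replicate block called 1579 genes, 0 members and 5 list genes. Deviations of same-numbered mice correlated between -0.219 and 0.0673. No pairing by number was seen, but such correlations cannot show whether the mice were paired, and the labels do not say.

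Differences that did not pass the test changed sign as follows, and the cause was not tested. With sample weights H2-D1 was at 0.036, Tapbp at 0.023, Cd74 at 0.104, Psme1 at 0.036, Cd274 at -0.009 and Cd209a at -0.014. With the Y-linked covariate Tapbp was at 0.087, Cd74 at 0.023 and Psme1 at 0.024. With median centring Tap1 was at -0.017, Calr at -0.034 and S100a8 at -0.023. With quantile normalization Tap1 was at -0.035, H2-DMb1 at -0.028 and S100a8 at -0.059. Leaving out single mice gave ranges of -0.060 to 0.165 for Tap1, -0.077 to 0.071 for Tapbp, -0.220 to 0.016 for Cd74 and -0.021 to 0.202 for H2-Ab1. The ranges were -0.063 to 0.151 for Calr, -0.039 to 0.152 for H2-DMb1, -0.012 to 0.198 for Cd274, -0.153 to 0.072 for Icosl and -0.113 to 0.149 for S100a8. Cd1d1, Canx, Lgmn and Jak2 passed in 18 of 18 alternatives each. Levels per length moved by more than 1 SD with the longest transcript for H2-K1, H2-D1, Tap1, Tapbp and H2-Ab1.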
